A study of Mus musculus with 14 samples.

Results

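The genes described here control the G1 phase of the cell cycle: the D cyclins Ccnd1, Ccnd2 and Ccnd3, their kinases Cdk4 and Cdk6, the inhibitors Cdkn2a, Cdkn2b, Cdkn2c and Cdkn1b, and Rb1, the retinoblastoma gene. They were taken by symbol, 10 of the 24015 symbols in the deposited table, and all 10 passed the filter on low counts in every comparison. Total RNA of mouse embryonic fibroblasts (MEFs) of strain 129s2 was sequenced. The cells came from embryos at day 14.5 and had been passaged 3 to 4 times when they were kept in either medium for 18 hours. The 4 groups were SirT7-/- cells in glucose-free medium (KO-GS, n = 3), SirT7-/- cells in normal medium (KO-NT, n = 4), wild-type cells in glucose-free medium (WT-GS, n = 3) and wild-type cells in normal medium (WT-NT, n = 4). SirT7 is a sirtuin, an enzyme that uses NAD to remove acyl groups from proteins. Whether replicates stand for separate embryos or cultures is not stated, so each p-value reflects variation among these libraries, which may be technical.

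In G1, growth factors raise the D cyclins, which bind and activate CDK4 and CDK6. These kinases begin the phosphorylation of the retinoblastoma protein and its relatives, which frees E2F transcription factors to switch on genes for DNA synthesis. The INK4 proteins (p16 and p15, from the neighbouring genes Cdkn2a and Cdkn2b, and p18, from Cdkn2c) bind CDK4 and CDK6 and block them, and p27, from Cdkn1b, holds back the CDK2 step. In cultured MEFs, p16, p15 and p19ARF, the second product of Cdkn2a, are known to build up with passage.

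Total counts per library ran from 59788270 to 91607861. The 10 genes rested on 316 (Cdkn2c in WT-GS 2) to 122919 (Ccnd2 in WT-NT 4) counts per library. Sirt7 had 0.301 to 1.41 CPM (counts scaled to a common library total) in the SirT7-/- libraries, against 16.9 to 23.1 CPM in wild type. Fibroblast markers were abundant in every library, all 10 with a count throughout. Placement by medium was less uniform. Hspa5, an endoplasmic reticulum chaperone, had 6206 to 7435 CPM in WT-GS and 1065 to 1479 CPM in WT-NT. The library labelled KO-GS 3 had 1066 CPM of Hspa5, beside 6251 and 5654 CPM in KO-GS 1 and 2. The library labelled KO-NT 4 had 6333 CPM, beside 1437 to 1556 CPM in the other KO-NT libraries. Txnip, a gene induced by glucose, placed them likewise, at 118 CPM in the library labelled KO-GS 3 and 5.53 CPM in the library labelled KO-NT 4. Results that use these libraries are therefore given with and without both, by their labels.

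Promoter sequences show what lies at the start of genes that the results turn on. The RefSeq table of GRCm38.p6 held 10 windows for 7 of the genes, each from 250 bases before to 50 after a transcript start. Ccnd3, Cdkn2a and Cdkn2c each had an upstream and a downstream window, and Ccnd1, Ccnd2 and Rb1 had none. Printed here are the windows of Ccnd3, Cdkn2c and Cdkn1b, all lower in starved wild-type cells, and of Cdk4, which did not pass the test. Capitals mark matches on either strand to CACGTG (the E-box bound by Myc), GGGCGG (the core of Sp1 sites), CCAAT (the box bound by NF-Y), TGACGT (a cyclic AMP response element core) and GTAAACA (a FOXO site). Sequences run 5′ to 3′ on the gene's strand.
Ccnd3 upstream start, chr17:47504801-47505100, plus strand: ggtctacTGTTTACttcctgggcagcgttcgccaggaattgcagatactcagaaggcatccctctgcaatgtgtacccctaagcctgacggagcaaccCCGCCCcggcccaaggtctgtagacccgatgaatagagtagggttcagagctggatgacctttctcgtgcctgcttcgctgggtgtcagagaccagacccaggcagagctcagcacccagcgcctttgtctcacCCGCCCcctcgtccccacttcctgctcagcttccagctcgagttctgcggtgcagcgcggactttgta
Ccnd3 downstream start, chr17:47593217-47593516, plus strand: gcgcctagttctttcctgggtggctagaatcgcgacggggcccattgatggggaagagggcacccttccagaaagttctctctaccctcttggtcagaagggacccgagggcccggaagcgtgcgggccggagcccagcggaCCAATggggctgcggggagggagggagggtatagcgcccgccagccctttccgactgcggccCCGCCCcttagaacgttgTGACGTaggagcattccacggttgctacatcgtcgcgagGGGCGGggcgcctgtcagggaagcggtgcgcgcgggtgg
Cdkn2c upstream start, chr4:109666707-109667006, minus strand: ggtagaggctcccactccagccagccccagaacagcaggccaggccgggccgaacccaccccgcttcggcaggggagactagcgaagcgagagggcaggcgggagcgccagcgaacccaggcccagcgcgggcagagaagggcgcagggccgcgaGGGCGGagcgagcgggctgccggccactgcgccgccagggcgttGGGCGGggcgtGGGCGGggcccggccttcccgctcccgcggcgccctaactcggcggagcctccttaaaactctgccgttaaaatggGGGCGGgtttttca
Cdkn2c downstream start, chr4:109665323-109665622, minus strand: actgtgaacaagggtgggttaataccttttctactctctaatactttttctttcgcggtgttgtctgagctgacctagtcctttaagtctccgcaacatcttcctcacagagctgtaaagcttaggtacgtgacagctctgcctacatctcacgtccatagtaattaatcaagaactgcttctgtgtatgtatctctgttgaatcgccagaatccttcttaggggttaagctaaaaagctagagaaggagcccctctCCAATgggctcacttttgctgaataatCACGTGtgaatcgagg
Cdkn1b, chr6:134920151-134920450, plus strand: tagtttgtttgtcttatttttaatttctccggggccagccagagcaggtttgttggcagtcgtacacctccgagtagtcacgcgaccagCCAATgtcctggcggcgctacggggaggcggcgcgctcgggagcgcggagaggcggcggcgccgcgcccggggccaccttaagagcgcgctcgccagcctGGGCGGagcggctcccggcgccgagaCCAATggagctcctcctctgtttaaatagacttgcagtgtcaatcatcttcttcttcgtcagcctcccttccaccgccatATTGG
Cdk4, chr10:127063285-127063584, plus strand: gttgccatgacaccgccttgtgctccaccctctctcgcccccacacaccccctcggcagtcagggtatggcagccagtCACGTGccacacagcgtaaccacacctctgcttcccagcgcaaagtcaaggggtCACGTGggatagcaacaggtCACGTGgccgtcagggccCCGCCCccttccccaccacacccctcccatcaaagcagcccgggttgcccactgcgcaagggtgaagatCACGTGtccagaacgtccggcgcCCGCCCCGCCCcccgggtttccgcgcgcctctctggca
The Cdk4 window held 4 matches to CACGTG and 3 to GGGCGG, a pair of which overlap. Cdkn1b had 3 matches to CCAAT and 1 to GGGCGG. The downstream start of Cdkn2c, at 44.0% G and C, held 1 match to CACGTG and 1 to CCAAT, and its upstream start, at 73.3%, held 4 matches to GGGCGG. The only match to GTAAACA among the 10 windows lay at the upstream start of Ccnd3. Over all 10 windows, GGGCGG was found in 8, CACGTG in 3 and CCAAT in 4, against 35.7%, 7.15% and 37.4% of the 32851 windows in the table. TGACGT was found in 2 windows, one of Ccnd3 and one of Cdkn2b, against 7.51% of all, and GTAAACA was in 3.65% of all. TTTCGCGC or TTTGGCGC, the E2F site, was in 0 of the 10 and in 0.813% of all. The median window of the table was 52.7% G and C. Of the 10 windows, only the downstream start of Cdkn2c lay below that, and the highest, of Cdkn2a, was at 77.0%. The part of base composition in these shares was not tested. Such matches describe letters, not binding.

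Levels per length (CPM per kilobase of exon) set the order of the genes in wild-type cells in normal medium. Cdk4 stood highest at 155 ± 18.2 (SD, n = 4), followed by Ccnd2 at 130 ± 50.3, Ccnd1 at 78.0 ± 18.6 and Cdkn2b at 70.0 ± 7.98. The mean ± SD ranges of each neighbouring pair among these overlapped. Ccnd3 followed at 50.6 ± 4.97 and Cdkn2a at 25.8 ± 7.17. Cdkn1b at 7.80 ± 0.337 and Rb1 at 6.23 ± 1.64 also had overlapping ranges. The lowest were Cdkn2c at 3.75 ± 0.281 and Cdk6 at 1.3 ± 0.442, so that Cdk4 and not Cdk6 supplied most of the kinase transcript. Exon lengths came from GENCODE vM21, a different genome build from the submitters', and serve for these comparisons between genes only.

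**Figure D1:**
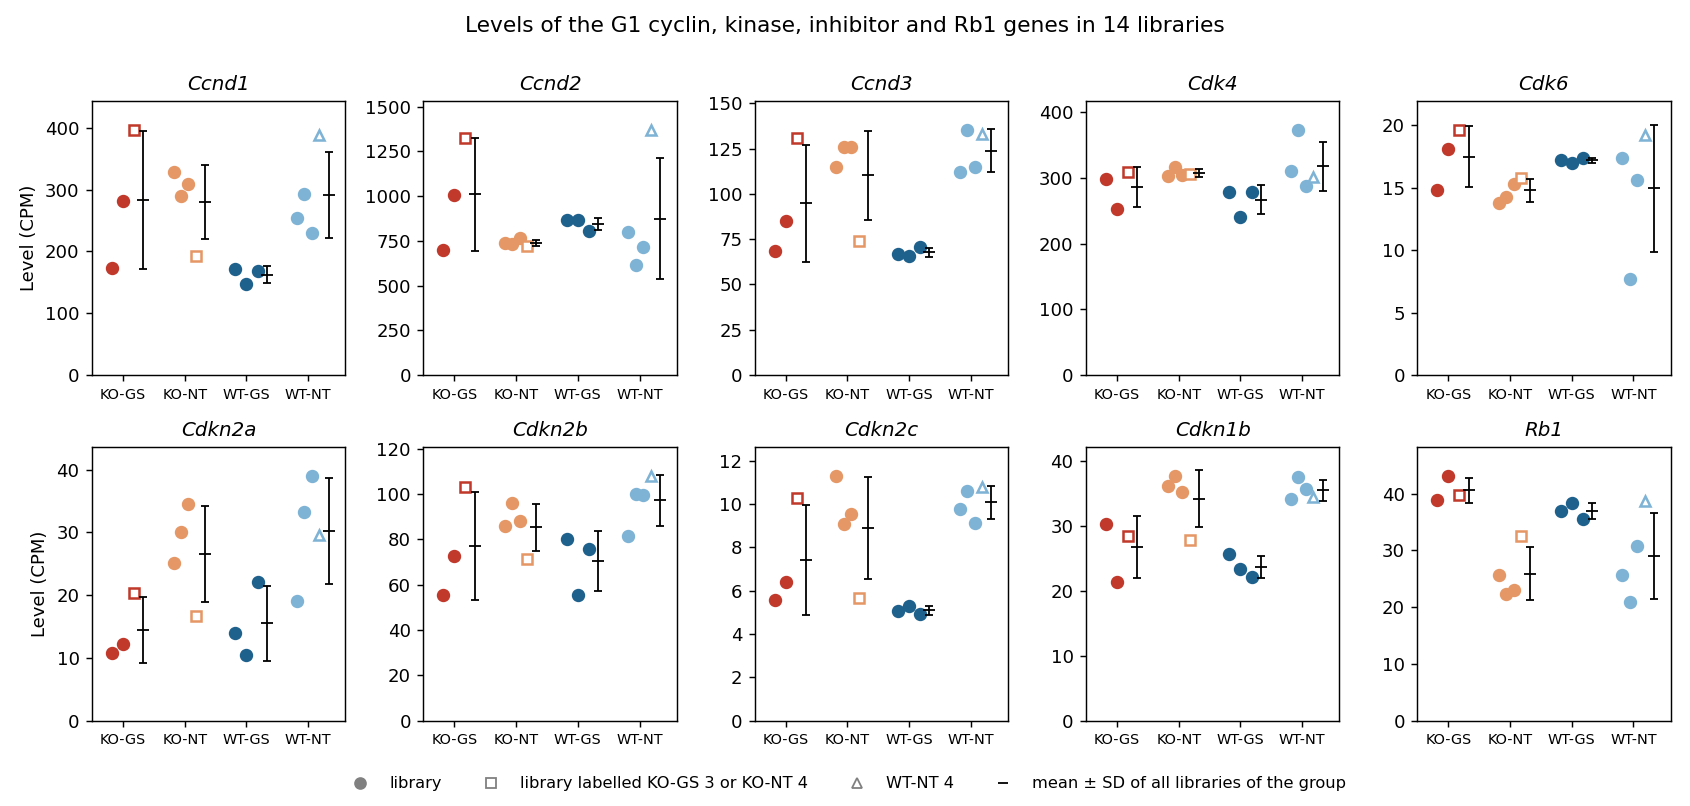
CPM of each gene (vertical axis, linear, from 0) in the 14 libraries, by group, with group means ± SD. Open squares are the libraries labelled KO-GS 3 and KO-NT 4, and open triangles are WT-NT 4, the highest library of its group for Ccnd2 at 1367 CPM.

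The first comparison asks what glucose starvation did in wild-type cells. Ccnd1, Ccnd3, Cdkn2c and Cdkn1b were lower in WT-GS than in WT-NT, and the other 6 genes did not pass the test (edgeR quasi-likelihood test, adjusted p under 0.05 over 15263 genes). These 4 of 10 stand beside 33.8% of all genes called, 16.8% higher and 17% lower, so the share of called genes is near the background. The libraries of WT-GS and WT-NT did not overlap for 6 of the 10 genes, all lower in WT-GS, where the background is 45.4% of all genes. DESeq2 called 6 of the 10, adding Cdkn2a and Cdkn2b, and 32.7% of all genes. Median log2 change over the 10 was -0.48, and over all genes tested -0.03. Since the RNA is bulk, fewer cells in a phase and less RNA per cell cannot be told apart.

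Of the D cyclins, Ccnd1 and Ccnd3 were called lower and Ccnd2 was not, and the difference between these genes was not tested. Ccnd1 encodes cyclin D1, the D cyclin most tightly coupled to growth factor signals in fibroblasts. Its level was 172, 147 and 169 CPM in WT-GS, against 254, 293, 230 and 389 CPM in WT-NT. Every starved library lay below every library in normal medium. It fell 1.74-fold, a log2 change of -0.80 (SE 0.178, 95% interval -1.21 to -0.38, adjusted p = 0.0128 by edgeR). Without WT-GS 2 it did not pass (-0.72, adjusted p = 0.0534). Ccnd3, for cyclin D3, had 66.9, 65.7 and 70.5 CPM in WT-GS, against 112, 135, 115 and 133 CPM in WT-NT. Both sets were narrow and well apart. The log2 change was -0.83 (SE 0.0941, 95% interval -1.05 to -0.61, adjusted p = 0.000864), or 1.78-fold lower. Ccnd2, for cyclin D2, had 865, 864 and 806 CPM in WT-GS, against 802, 613, 714 and 1367 CPM in WT-NT. The starved libraries lay inside the range of the others, which WT-NT 4 set at its top. Its log2 change was -0.0024 (95% interval -0.59 to 0.59, adjusted p = 0.995). Without WT-NT 4 it was 0.30 (95% interval 0.03 to 0.56, adjusted p = 0.0699). WT-NT 4 was the only library above the starved ones, so that value is in part set by leaving it out.

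Per length, the make-up of the D cyclin transcripts shifted toward Ccnd2. Ccnd2 made up 63.9 ± 2.08% of the summed CPM per kilobase of the 3 genes in WT-GS (SD, n = 3) and 49.4 ± 6.53% in WT-NT (n = 4). Its share was 61.9 to 66.1% in the starved libraries and 40.6 to 56.2% in the others, with no overlap. Ccnd1 took 22.1 ± 1.66% in WT-GS and 30.3 ± 3.01% in WT-NT, and Ccnd3 took 14 ± 0.70% in WT-GS and 20.3 ± 4.04% in WT-NT. In SirT7-/- cells the Ccnd2 share was 58.3, 57.7 and 55.3% in KO-GS 1 to 3, against 45.0, 45.7, 45.9 and 56.7% in KO-NT 1 to 4. The library labelled KO-NT 4 thus lay beside KO-GS. That labelled KO-GS 3 also lay beside KO-GS 1 and 2, and WT-NT 4, in normal medium, had 56.2%. These shares are descriptions and were given no test.

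**Figure D2:**
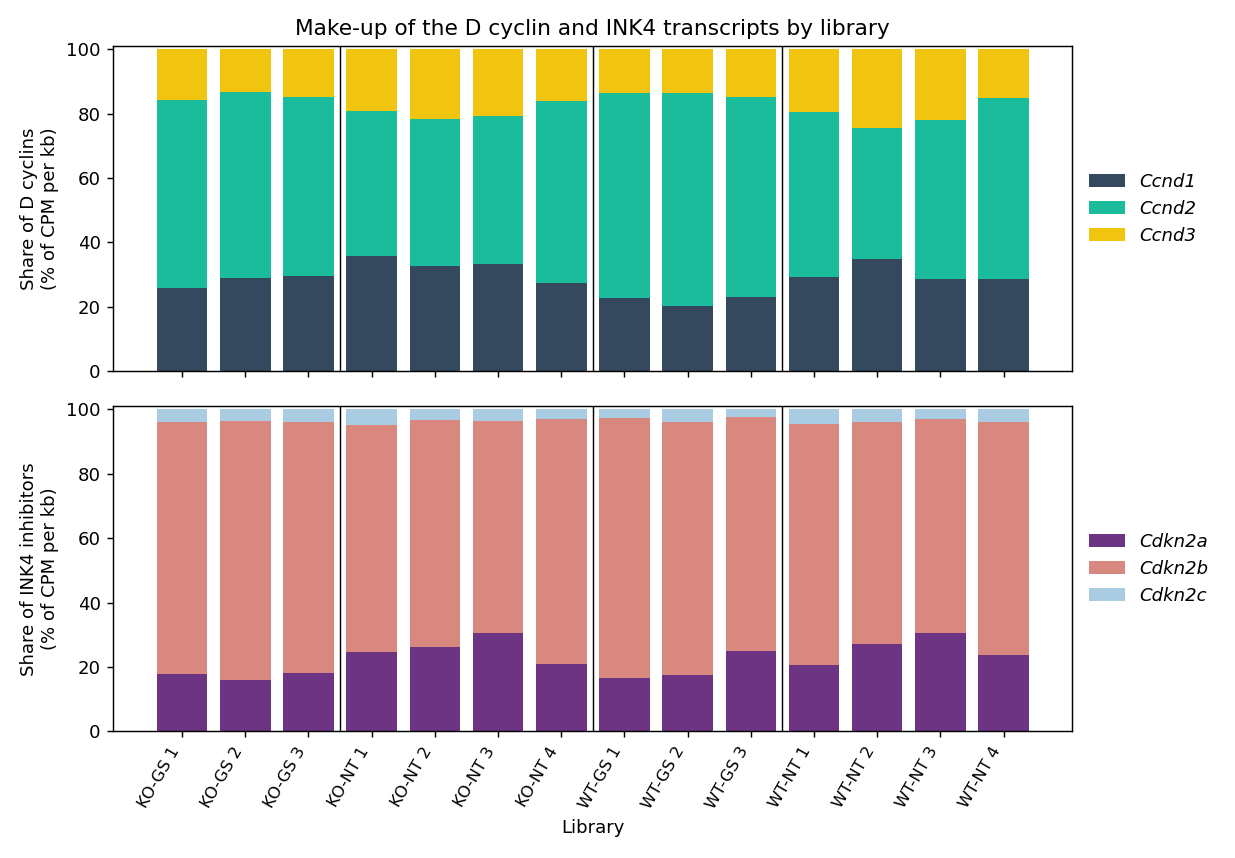
Share of each gene in the summed CPM per kilobase of the D cyclins (top) and of Cdkn2a, Cdkn2b and Cdkn2c (bottom). Shares are in percent, for each library, and vertical lines part the groups. The bottom axis calls those genes INK4 inhibitors, without Cdkn2d. The Ccnd2 share is 61.9 to 66.1% in the 3 WT-GS libraries and 40.6 to 56.2% in the 4 WT-NT libraries.

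Neither kinase gene passed the test. Cdk4 had 279, 241 and 279 CPM in WT-GS, against 310, 372, 288 and 301 CPM in WT-NT. Libraries did not overlap, but the log2 change was small, at -0.21 (SE 0.116, 95% interval -0.48 to 0.06, adjusted p = 0.192 by edgeR). Cdk6 had 17.2, 17.0 and 17.4 CPM in WT-GS, against 17.4, 7.66, 15.6 and 19.2 CPM in WT-NT. WT-NT 2 lay lowest of all 14 libraries for this gene. The log2 change of Cdk6 was 0.24 (95% interval -0.40 to 0.89, adjusted p = 0.521).

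Of the INK4 genes among the 10, Cdkn2c fell, and Cdkn2a and Cdkn2b were close to the threshold. Cdkn2c had 5.08, 5.29 and 4.90 CPM in WT-GS, against 9.79, 10.6, 9.14 and 10.8 CPM in WT-NT. Levels within each medium agreed closely and the groups were far apart. It was 1.92-fold lower, with a log2 change of -0.94 (SE 0.120, 95% interval -1.22 to -0.66, adjusted p = 0.00137 by edgeR). Cdkn2a had 13.9, 10.5 and 22.1 CPM in WT-GS, against 19, 33.2, 39.0 and 29.6 CPM in WT-NT. WT-GS 3 lay above WT-NT 1. The log2 change was -0.91 (95% interval -1.65 to -0.18) at an adjusted p of 0.059, and DESeq2 gave the same -0.91 at an adjusted p of 0.00983. Counts per gene cannot tell the p16 transcript of Cdkn2a from that of p19ARF. Cdkn2b had 80.2, 55.5 and 75.8 CPM in WT-GS, against 81.5, 100, 99.7 and 108 CPM in WT-NT. These did not overlap, though WT-GS 1 and WT-NT 1 nearly met. Its log2 change was -0.42 (95% interval -0.77 to -0.07, adjusted p = 0.0666), with an adjusted p of 0.0362 by DESeq2. Of the summed CPM per kilobase of Cdkn2a, Cdkn2b and Cdkn2c, Cdkn2b made up 77.3 ± 4.28% in WT-GS (SD, n = 3) and 70.6 ± 3.77% in WT-NT (n = 4). That sum leaves out the INK4 gene Cdkn2d and includes the p19ARF transcript of Cdkn2a.

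Cdkn1b, the gene of p27, had 25.6, 23.3 and 22.2 CPM in WT-GS, against 34.2, 37.6, 35.7 and 34.4 CPM in WT-NT. Groups were narrow and apart. It fell 1.45-fold, with a log2 change of -0.54 (SE 0.0857, 95% interval -0.74 to -0.34, adjusted p = 0.00326 by edgeR). Of 4 other inhibitor genes, Cdkn2d and Cdkn3 were lower and 0 were higher. Cdkn2d, for the INK4 protein p19, changed by -0.64 (adjusted p = 0.00248). Cdkn3, which despite its name encodes a phosphatase of cyclin-dependent kinases that rises toward mitosis, changed by -1.69 (adjusted p = 0.000773). Cdkn1a, the p53 target p21, had 382, 394 and 400 CPM in WT-GS, against 269, 257, 239 and 483 CPM in WT-NT. Here WT-NT 4 alone lay above the starved libraries. Its log2 change was 0.37 (adjusted p = 0.249), and 0.66 (adjusted p = 0.00109) without WT-NT 4. Leaving out the only library that overlapped the starved ones in part sets this lower adjusted p. Cdkn1c, for p57, changed by -0.84 (adjusted p = 0.168).

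Rb1, the gene of the main substrate of CDK4 and CDK6, had 37.0, 38.4 and 35.5 CPM in WT-GS, against 25.7, 20.9, 30.7 and 38.7 CPM in WT-NT. Only WT-NT 4 reached the starved libraries. The log2 change was 0.39 (95% interval -0.04 to 0.83, adjusted p = 0.14 by edgeR) with all libraries, and 0.57 (95% interval 0.25 to 0.89, adjusted p = 0.0143) without WT-NT 4. That fit called 5 of the 10 genes and 44.5% of all genes. As it leaves out the only library that reached the starved ones, the call of Rb1 is in part set by that choice.

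**Figure D3:**
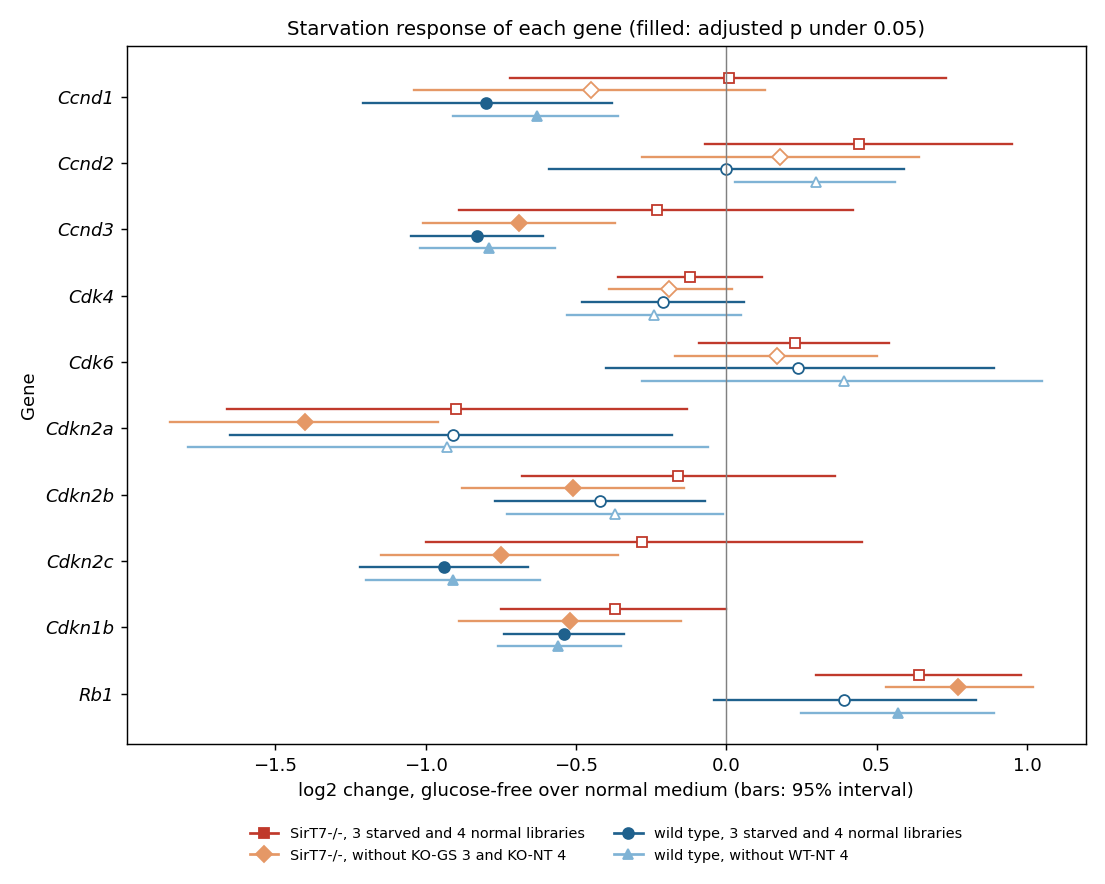
Log2 change of each gene in glucose-free over normal medium (horizontal axis, with bars for 95% intervals) in SirT7-/- and wild-type cells. Fits use all libraries, or leave out those labelled KO-GS 3 and KO-NT 4 in SirT7-/- cells and WT-NT 4 in wild type. In wild type Ccnd1, Ccnd3, Cdkn2c and Cdkn1b lie between -0.94 and -0.54 and pass the test, and 0 genes pass in SirT7-/- cells with all 7 libraries.

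Genes around this step were read from lists written with earlier results of these data known. At the cyclin E and CDK2 step, 4 of 10 genes were lower and 1 higher in WT-GS (median log2 change -0.08, against -0.03 for all genes). Ccna2, for cyclin A2, changed by -1.10 (adjusted p = 0.00125 by edgeR), the kinase gene Cdk2 by -0.66 (0.00385), Ccne1, for cyclin E1, by -0.51 (0.00577) and Skp2, which marks p27 for destruction, by -0.52 (0.0255). Ccnh, part of the kinase that activates other cyclin-dependent kinases, was higher, by 0.56 (0.00835). Among 12 genes of Rb1 relatives, E2Fs and their partners, 3 were higher and 1 lower. Tfdp2, a DNA-binding partner of E2Fs, changed by 0.90 (0.00594), E2f3 by 0.35 (0.017) and E2f6, a repressor of the family, by 0.35 (0.0191). Rbl1, for the Rb1 relative p107, changed by -0.47 (0.0477). Without WT-NT 4, 3 of the 12 were higher and 4 lower.

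Of 24 E2F target genes for DNA synthesis, 11 were lower and 0 higher, with a median log2 change of -0.44, and without WT-NT 4, 17 were lower and 1 higher. Tyms and Rrm1, for enzymes that make DNA precursors, changed by -1.11 (adjusted p = 0.00108 by edgeR) and -0.56 (0.00824), and Mcm5, for a subunit of the replicative helicase, by -1.11 (0.00961). All 20 genes of G2 and M phase were lower, with a median of -1.21. Examples are Ccnb1, for cyclin B1, at -1.54 (0.000347), the mitotic kinase genes Plk1 at -2.62 (0.000404) and Aurka at -1.68 (0.000521), and the checkpoint gene Bub1b at -1.98 (0.000384). Summed, the 20 genes had 578 to 750 CPM in WT-GS and 1289 to 1796 CPM in WT-NT, and the part of this shift in the G1 genes was not tested.

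Activators of the D cyclin genes went both ways, 6 of 19 higher and 5 lower. The transcription factor genes Stat3 and Stat5a changed by -1.03 (adjusted p = 0.00021 by edgeR) and -1.17 (0.00133). In the MAP kinase path, Map2k1, for MEK1, changed by 0.63 (0.00137) and Mapk3, for ERK1, by -0.77 (0.00165). Of 16 genes for turnover of D cyclins and p27, 1 was higher and 2 lower: Fbxo4, a ubiquitin ligase subunit for cyclin D1, at 0.41 (0.0395), Usp2, a deubiquitinase that protects cyclin D1, at -1.02 (0.000977), and Skp2 as above. Without WT-NT 4, 4 of the 16 were higher and 3 lower. Of 20 genes listed around the Cdkn2a locus, not all of them its regulators, 4 were higher and 2 lower. Hmga2, known to hold down Cdkn2a in stem cells, changed by 0.71 (0.00328) and Dmtf1, an activator of Arf, by 0.52 (0.00471). Mdm2, which degrades p53, changed by 0.88 (0.0132), and Kdm6b, a demethylase that opens the locus, by -0.61 (0.00529).

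**Figure D4:**
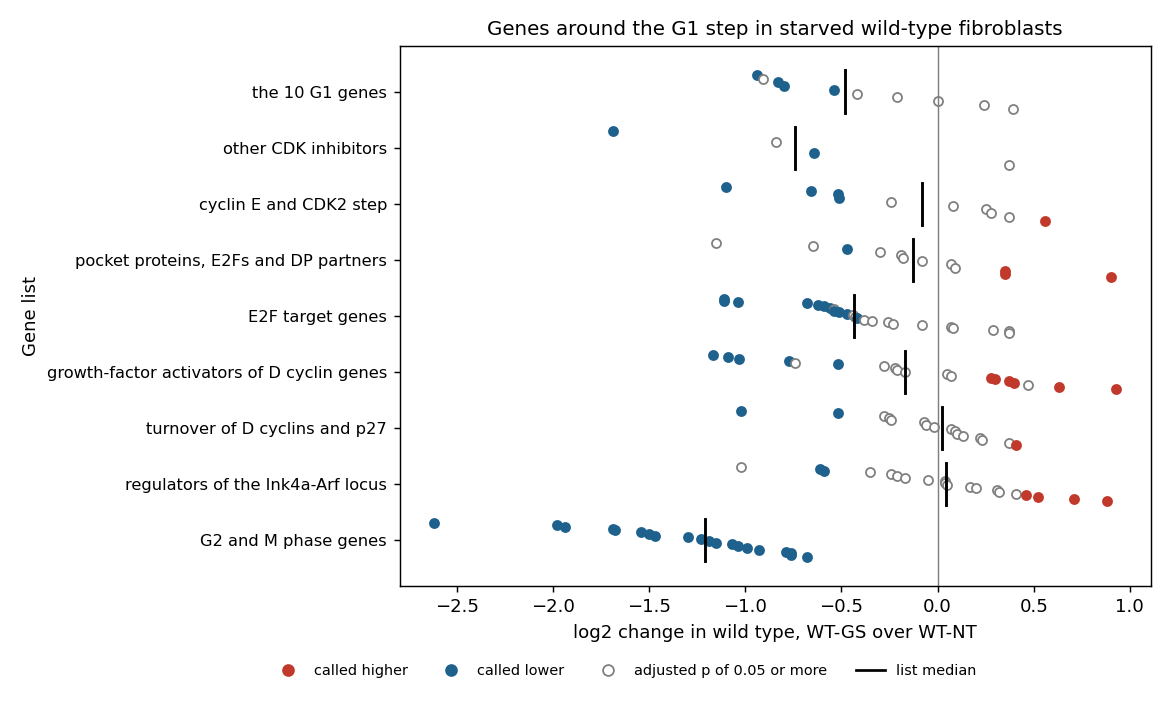
Log2 change in wild type, WT-GS over WT-NT (horizontal axis), of every tested gene in 9 lists; filled points passed the test and bars mark list medians. The 20 genes of G2 and M phase are all lower, with a median of -1.21, while the 10 G1 genes have a median of -0.48 and 4 called.

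Markers of other cells also differed between the groups. Of 10 fibroblast markers 6 were lower, led by Col1a2, Col1a1, Pdgfra and Col3a1, and their sum was 24914 to 26549 CPM in WT-GS, against 43718 to 50989 CPM in WT-NT. Macrophage markers summed to 14.1 to 381 CPM in WT-GS and 329 to 2187 CPM in WT-NT. Of these, 14 of 15 had a count in all 14 libraries, Tyrobp was at 0 in WT-GS 2, and Cd14, Fcgr1 and Cd68 were called lower. Skeletal muscle markers summed to 94.7 to 248 CPM in WT-GS and 82.5 to 141 CPM in WT-NT. Ckm was at 0 throughout, Myod1, Myog, Myf5, Myh8 and Actc1 were at 0 in at least 1 of the 14 libraries, and of 9 tested 1 was higher and 5 were lower. Epithelial markers reached at most 12.8 CPM in any library, with Krt5 at 0 in all and Cdh1 the 1 called, lower, of 5 tested, and endothelial markers at most 22.0 CPM, with 0 of 5 called by edgeR and 1 by DESeq2. DESeq2 also called 7 macrophage markers lower. Without WT-NT 4, edgeR called the endothelial marker Kdr higher, at 1.22 (adjusted p = 0.00743). The fibroblast marker Dcn was also called higher in that fit, at 0.81 (0.0443), and Cd68 did not pass (0.0509). The part of these cells in the changes of the G1 genes was not tested.

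The same starvation question was put to SirT7-/- cells. Using the 7 libraries as labelled, 0 of the 10 genes and 0 of 15186 genes (0%) passed the test by edgeR, while 2253 genes and 2 of the 10 had an unadjusted p under 0.05. By DESeq2, 478 genes passed (2.52%), Rb1 among them (adjusted p = 0.0153). Rb1 had 38.8, 43.1 and 39.8 CPM in KO-GS, against 25.7, 22.3, 23.0 and 32.5 CPM in KO-NT. It was the only one of the 10 whose libraries did not overlap, beside 12.5% of all genes, and the library labelled KO-NT 4 was the highest of its group. This counts the library labelled KO-GS 3 as starved, though its Hspa5 and Txnip lay with normal medium. That library's 39.8 CPM of Rb1 lay beside 38.7 CPM in WT-NT 4. The log2 change of Rb1 was 0.64 (SE 0.144, 95% interval 0.30 to 0.98, adjusted p = 0.297 by edgeR). Ccnd1 had 173, 282 and 396 CPM in KO-GS, against 328, 290, 310 and 193 CPM in KO-NT. The libraries labelled KO-GS 3 and KO-NT 4 held the top and the second lowest place among the 7. Its log2 change was 0.01 (95% interval -0.72 to 0.73). The same places held for Ccnd3, at 68.5, 84.8 and 131 CPM in KO-GS and 115, 126, 126 and 74.1 CPM in KO-NT. Cdkn2c had 5.58, 6.38 and 10.3 CPM in KO-GS, against 11.3, 9.06, 9.54 and 5.67 CPM in KO-NT. There the library labelled KO-GS 3 was second highest and that labelled KO-NT 4 second lowest. Cdkn2a, the other gene with an unadjusted p under 0.05, changed by -0.90 (95% interval -1.66 to -0.13, adjusted p = 0.319), Ccnd2 by 0.44 (-0.07 to 0.95) and Cdkn1b by -0.37 (-0.75 to 0.00). Ccnd2 had 696, 1008 and 1325 CPM in KO-GS, against 739, 730, 764 and 722 CPM in KO-NT. The library labelled KO-GS 3 was thus its highest in SirT7-/- cells, and only WT-NT 4, at 1367 CPM, lay above it.

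Without the libraries labelled KO-GS 3 and KO-NT 4, Ccnd3, Cdkn2a, Cdkn2b, Cdkn2c and Cdkn1b were lower and Rb1 higher in KO-GS, 6 of the 10 called. The background is 39.7% of 15284 genes, 20.9% higher and 18.8% lower. These libraries were set aside for their place along starvation genes, so the calls are in part set by that choice, and only 2 starved and 3 normal libraries remain. Cdkn2a had 10.7 and 12.2 CPM in KO-GS 1 and 2, against 25.1, 30.0 and 34.6 CPM in KO-NT 1 to 3. Those are well apart, and the log2 change was -1.40 (SE 0.174, 95% interval -1.85 to -0.96, adjusted p = 0.00427 by edgeR), or 2.65-fold lower. Rb1 changed by 0.77 (SE 0.0978, adjusted p = 0.00435), and without the library labelled KO-NT 4 alone it was also called, at 0.76 (adjusted p = 0.0163), the 1 of the 10 called beside 14.5% of all genes. Ccnd3 changed by -0.69 (0.0118) and Cdkn2c by -0.75 (0.0168). Nearer the threshold were Cdkn1b at -0.52 (0.0417) and Cdkn2b at -0.51 (0.0446). Ccnd1 did not pass, at -0.45 (95% interval -1.04 to 0.13, adjusted p = 0.174), nor did Ccnd2 at 0.18 (0.467), Cdk4 at -0.19 (0.127) and Cdk6 at 0.17 (0.359). Libraries did not overlap for 8 of the 10 genes, beside 64.8% of all genes.

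Lists around the G1 step gave 0 calls by edgeR when all 7 SirT7-/- libraries were used, where 9 of 24 E2F target genes had an unadjusted p under 0.05 and DESeq2 called 3, all lower. Without the 2 libraries, 16 of 24 E2F target genes and 20 of 20 genes of G2 and M phase were lower, with medians of -0.52 and -1.20. Among the other inhibitors, Cdkn3 changed by -1.76 (adjusted p = 0.0044 by edgeR), Cdkn2d by -0.65 (0.0057) and Cdkn1a by 0.63 (0.0119). Summed macrophage markers were 121 to 1160 CPM in KO-GS and 423 to 768 CPM in KO-NT, and skeletal muscle markers were 89.1 to 199 CPM in KO-GS and 81.4 to 135 CPM in KO-NT, with 0 of either list called and 0 at an unadjusted p under 0.05 in both edgeR fits. Fibroblast markers summed to 26528 to 43436 CPM in KO-GS and 28465 to 51024 CPM in KO-NT, 6 of 10 lower without the 2 libraries. Their part in the changes was not tested.

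The next comparisons ask what loss of SirT7 did in each medium. In normal medium, 0 of the 10 genes passed by edgeR, beside 1 of 14971 genes (0.00668%), which was Sirt7. DESeq2 called 45 genes (0.238%) and 0 of the 10, and 564 genes but 0 of the 10 had an unadjusted p under 0.05 by edgeR. Libraries overlapped for all 10 genes, against 3.33% of genes with no overlap. The log2 changes ran from -0.22 for Ccnd2 (95% interval -0.74 to 0.31) to 0.01 for Cdk6 (95% interval -0.57 to 0.58). Intervals were narrowest for Cdk4, at -0.02 (-0.26 to 0.21), and Cdkn1b, at -0.03 (-0.29 to 0.23), and widest for Cdkn2a, at -0.16 (-0.78 to 0.46). Cdkn1b averaged 34.2 ± 4.41 CPM in KO-NT and 35.5 ± 1.53 CPM in WT-NT, and Cdkn2a averaged 26.6 ± 7.69 CPM in KO-NT and 30.2 ± 8.40 CPM in WT-NT (SD, n = 4 each). Without the library labelled KO-NT 4, Cdkn1b lay at 0.06 (-0.11 to 0.23) and Ccnd3 at 0.01 (-0.21 to 0.23).

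In glucose-free medium, 0 of the 10 passed by edgeR, beside 1 of 14972 genes (0.00668%), again Sirt7. DESeq2 called 17 genes (0.0898%), 0 of the 10 among them, and 490 genes had an unadjusted p under 0.05. Ccnd1, the 1 of the 10 among these, had 173, 282 and 396 CPM in KO-GS, against 172, 147 and 169 CPM in WT-GS. Its lowest SirT7-/- library all but touched the highest of wild type. The log2 change was 0.76 (SE 0.291, 95% interval 0.06 to 1.47, adjusted p = 0.81), and 0.46 (95% interval -0.13 to 1.05) without the library labelled KO-GS 3. Libraries did not overlap for Ccnd1, Cdkn2c and Rb1, each higher in KO-GS, beside 10.8% of all genes. Cdkn2c changed by 0.50 (95% interval -0.11 to 1.11, adjusted p = 0.81), or 0.20 (-0.18 to 0.58) without that library, and Rb1 by 0.09 (-0.13 to 0.31).

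The difference between the genotypes in their response to starvation was tested across all 14 libraries. By edgeR, 0 of the 10 genes and 0 of 15666 genes (0%) passed. By DESeq2, 2 genes passed (0.0101%), 0 of the 10 among them, and 950 genes but 0 of the 10 had an unadjusted p under 0.05. The widest differences were 0.79 for Ccnd1 (95% interval -0.03 to 1.61, adjusted p = 0.68), 0.65 for Cdkn2c (-0.07 to 1.38) and 0.58 for Ccnd3 (-0.09 to 1.26), each toward a higher value in SirT7-/- cells. Without the libraries labelled KO-GS 3 and KO-NT 4, they were 0.34 for Ccnd1 (-0.32 to 1), 0.19 for Cdkn2c (-0.21 to 0.58) and 0.13 for Ccnd3 (-0.21 to 0.48). Cdkn2a then stood at -0.49 (-1.43 to 0.45). A response that differs between the genotypes was therefore not shown for any of the 10, within these intervals.

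Across the 14 libraries, which share the 4 groups, the genes whose log2 CPM most resembled each of the 10 among 10694 genes were found by Pearson's r, as a description. Ccnd3 was most like Crat and Slc25a1 (0.99 each), the genes of carnitine acetyltransferase and the mitochondrial citrate carrier, and Cdkn2c most like Cdkn3 and Dnm3os (0.98 each). Cdkn1b went with Klhl17 (0.98) and Pou6f1 (0.97), Rb1 with Asah2 (0.97) and Ctsd (0.96), and Cdk6 with Ptar1 (0.97) and Lnpep (0.96). Ccnd1 was most like Arxes2 and Hmcn1 (0.95 each), Cdk4 like Coro1b and Sumo3 (0.95 each), and Ccnd2 like Rybp and Ppfibp1 (0.94 each). Cdkn2a was most like Brat1 and Itga11 (0.93 each), and Cdkn2b like Cpa6 (0.92) and Add1 (0.91). Between the 10 themselves, Ccnd3 and Cdkn2c stood at 0.97, Ccnd1 and Ccnd3 at 0.90, and Cdkn2a and its neighbour Cdkn2b at 0.85. Ccnd1 and Ccnd2 stood at 0.43, Ccnd2 and Ccnd3 at 0.15, and Cdkn1b and Rb1 at -0.82.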

How the data were processed

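Libraries were made with an Illumina TruSeq kit, per the labels' protocols. Per the submitters' processing notes, FastQC 0.11.3, Trimmomatic 0.36, HISAT2 2.1.0, SAMtools, StringTie 1.3.3 and DESeq2 1.18.1 were used on genome build mm9. The annotation and strand setting are not given in the sources used here. Values deposited by the authors are estimated counts per gene symbol, whole and unscaled, and 27 entries carry a date in place of a symbol.

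Counts were tested in R 4.3.3 with the edgeR 4.0.16 quasi-likelihood F-test, using TMM normalization, filterByExpr (minimum count 10, minimum total 15) and robust dispersion. Each pair of groups was fitted alone, and the genotype difference on all 14 libraries. Benjamini-Hochberg adjustment ran over all genes tested, with calls under 0.05. Standard errors were worked back from the F-test. CPM used the plain total count of each library, and only the log2 CPM behind the correlations used TMM-scaled totals. Per-length levels used the exon length of GENCODE vM21 (GRCm38). DESeq2 1.42.0, other normalizations, no filter, a fit of all libraries, a replicate block and left-out libraries were alternatives. An alternative that leaves out WT-NT 4, KO-NT 4 and KO-GS 3 at once was added after seeing the data. The fit without WT-NT 4 is quoted because that library was the highest of its group for Ccnd2 and Rb1, among others. Dixon's test, given below, flagged it for none of the 10 genes. The calls of that fit are in part set by this choice. The genes, lists and tests were chosen with earlier results of these data known. Genes named are the 10 in every comparison, Sirt7, starvation and cell markers, up to 4 genes per list with the smallest p in wild type, all called genes of lists with up to 5 calls, and the 2 genes most like each of the 10 (mean of at least 5 CPM, prior count 2). The fits were tested on simulated data.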

Additional observations from a re-analysis of the deposited data

Results flagged for a closer look

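Dixon's test for a sample far from the others was applied to 17 genes in the 2 groups of 4 libraries, 34 checks, of which chance flags about 1 in 20. It flagged 7 values and none of the 10 G1 genes. All were genes of the starvation label check, which respond to glucose and to stress of the endoplasmic reticulum. In the library labelled KO-NT 4, Hspa5 had 6333 CPM, Hsp90b1 8926 CPM, Dnajb9 303 CPM and Derl3 145 CPM, each far above the other KO-NT libraries, and Arrdc4 had 3.61 CPM, far below them. In WT-NT 4, Hspa5 had 1065 CPM, below the other WT-NT libraries, and Dnajb9 had 40 CPM, above them. The G1 genes of WT-NT 4 are given one by one in the report. In the library labelled KO-NT 4, Cdk4 had 306 CPM, Cdk6 15.8 CPM, Cdkn2a 16.6 CPM, Cdkn2b 71.3 CPM and Cdkn1b 27.8 CPM. Its other G1 genes are given in the report.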

How the results depend on the processing

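In wild type, Ccnd3, Cdkn2c and Cdkn1b were called in every alternative, and Ccnd1 in all but that without WT-GS 2. Cdkn2a was also called with library size alone (adjusted p = 0.0481), without WT-GS 3 (0.0324) and without WT-NT 1 (0.0369), and Cdkn2b with library size alone (0.0475). Leaving out 1 library gave 2841 to 6668 genes and 3 to 5 of the 10, with 2841, 3353 and 2856 genes without WT-GS 1, 2 and 3. In SirT7-/- cells, 6065 genes and 6 of the 10 were called without the libraries labelled KO-GS 3 and KO-NT 4, 478 genes and 1 of the 10 by DESeq2, and 0 to 2182 genes and 0 to 1 of the 10 leaving out 1 library, 2182 of them without KO-NT 4. For SirT7 loss in normal medium the counts were 5 genes without that library, 45 by DESeq2, 9 without WT-NT 4 and both others, and 0 to 5 leaving out 1 (0 without WT-NT 2 or KO-NT 1, 3 without WT-NT 4). In glucose-free medium they were 4 genes without KO-GS 3, 17 by DESeq2 and 0 to 4 leaving out 1 (0 without WT-GS 1 or 3). The genotype difference gave 2 genes by DESeq2, 1 without those 3 libraries and 0 to 1 leaving out 1 (1 without WT-GS 3 or KO-GS 1). Why these counts moved was not tested. A level of 3 counts stood for 0.0327 to 0.0502 CPM.

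Replicate numbers were not taken to pair the libraries, since in each comparison at least 1 pair of same-numbered libraries had deviations that correlated at or under 0.1. A low pair cannot exclude pairing, so a fit with replicate number as a block is given below. The correlations were -0.1 to 0.23 between media in SirT7-/- cells, -0.01 to 0.24 between media in wild type, 0.04 to 0.46 between genotypes in glucose-free medium and -0.12 to 0.32 between genotypes in normal medium. In that order, 1 of 6, 4 of 6, 4 of 6 and 4 of 8 libraries went best with their own number. With replicate number as a block, 5862 genes and 6 of the 10 were called in wild type, with Cdkn2a (adjusted p = 0.037) and Rb1 (0.0319) added, and 0 in the other comparisons.

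Signs turned only for values that were uncalled in both fits, with the adjusted p at 0.0699 or above. In wild type, Ccnd2 (-0.0024) lay at 0.0035 by DESeq2, 0.0003 with RLE, 0.30 in the block fit and -0.14 to 0.30 leaving out 1 library. In SirT7-/- cells, Ccnd1 lay at -0.0034 with all libraries in 1 fit, -0.45 without the 2 libraries, -0.0049 with no filter, -0.22 in the block fit and -0.31 to 0.27 leaving out 1, and Cdkn2b at -0.43 to 0.04. For SirT7 loss in normal medium, values without KO-NT 4 were 0.11 for Ccnd1, 0.06 for Cdkn1b, -0.02 for Cdk6 (also with library size alone) and 0.01 for Ccnd3, Cdkn2a and Cdkn2c. Without WT-NT 4 too they were 0.28 for Ccnd1, 0.09 for Ccnd2, and 0.04 for Ccnd3, Cdkn2c and Cdkn1b. Leaving out 1 library gave -0.13 to 0.13 for Ccnd1, -0.34 to 0.08 for Ccnd2, -0.21 to 0.01 for Ccnd3, -0.07 to 0.07 for Cdk4, -0.21 to 0.14 for Cdk6, -0.33 to 0.01 for Cdkn2a, -0.28 to 0.01 for Cdkn2c, -0.08 to 0.06 for Cdkn1b and -0.27 to 0.02 for Rb1. In glucose-free medium, Ccnd2 was -0.02 and Cdkn2b -0.17 without KO-GS 3, and Cdk6 0.02 with library size alone. Leaving out 1 gave -0.02 to 0.43 for Ccnd2, -0.01 to 0.13 for Cdk4, -0.10 to 0.10 for Cdk6, -0.47 to 0.20 for Cdkn2a and -0.17 to 0.28 for Cdkn2b. For the genotype difference, Cdkn2a was -0.49 and Cdkn2b -0.09 without the 2 libraries, and Ccnd2 -0.10, Cdkn2a -0.47 and Cdkn2b -0.12 without WT-NT 4 too, while Cdk6 was 0.04 with library size alone. Leaving out 1 gave -0.0035 to 0.15 for Cdk4, -0.16 to 0.19 for Cdk6, -0.33 to 0.37 for Cdkn2a and -0.02 to 0.43 for Cdkn2b. The cause was not tested.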
